A study of Mus musculus with 10 samples.

Results

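The 48 genes described here act in the G2 phase of the cell cycle and in mitosis. They were taken as a named list, and all 48 were found among the 31053 genes of the count matrices. Their UMIs (unique molecular identifiers, each standing for 1 captured RNA molecule) were summed in every cell and divided by all UMIs of that cell, giving its G2/M share. The share was followed per embryo over all cells and within 3 kinds of progenitor, as a mean over cells and as the percent of cells with a high share.

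Cortex of mouse embryos at E16.5 was dissociated and profiled fresh with 10X Genomics 3′ version 3 single-cell RNA sequencing. There were 3 wild-type embryos (WT), 4 Gatad2b stop/+ embryos (Het, 1 EUCOMM stop allele) and 3 Gatad2b stop/stop embryos (KO, 2 stop alleles), each with 1 library and no treatment named in the labels. The mice were on the C57BL/6N-Atm1Brd background, which carries a targeted agouti allele in every group. Gatad2b encodes a subunit of the NuRD chromatin remodeling complex. The comparisons ask how G2/M transcripts differ with the loss of 1 or both Gatad2b alleles. Het and WT embryos are described as littermates, while sex and the litter of the KO embryos are not given in the sources used here.

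G2/M genes are switched on as a group late in the cell cycle, and most of them are low in cells that have left it, such as neurons. Their products build the spindle, attach chromosomes to it, activate the Cdk1 kinase and then mark cyclins for destruction so that the cell can divide. In the cortex at this age, radial glia (Hes5) divide at the ventricle, intermediate progenitors (Eomes) divide above them, and Dlx-expressing progenitors of the ganglionic eminences give rise to interneurons.

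Many promoters of this group are known to hold a CHR element, which binds MuvB complexes, and CCAAT boxes, which bind NF-Y. RefSeq promoter windows of GRCm38.p6, from 250 bases before to 50 after the start site, were matched for 42 of the 48 genes, in 46 windows. Cdca2, Cdc25c, Aurkb, Tpx2, Dlgap5 and Smc4 had no entry. The letters TTTGAA, read on both strands, were found in 69.6% of the 46 windows and in 17.9% of the 32851 windows of all genes. CCAAT, also on both strands, was found in 80.4% and 37.4%, and both motifs together in 58.7% and 6.95%. The motifs share no bases with each other where they are printed. The 150 bases before the start site are shown for the 3 genes with the largest increases over all cells in KO (Cks2, Cdc20, Birc5), for the 2 genes that fell in Eomes-positive KO cells (Hjurp, Ckap2l) and for cyclin B2 (Ccnb2), each on its own strand, with both motifs in capitals.
Cks2, chr13:51645082-51645231, plus strand: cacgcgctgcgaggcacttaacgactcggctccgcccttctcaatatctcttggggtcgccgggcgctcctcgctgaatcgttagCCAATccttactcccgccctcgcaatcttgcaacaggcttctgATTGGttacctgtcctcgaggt
Cdc20, chr4:118437344-118437493, minus strand: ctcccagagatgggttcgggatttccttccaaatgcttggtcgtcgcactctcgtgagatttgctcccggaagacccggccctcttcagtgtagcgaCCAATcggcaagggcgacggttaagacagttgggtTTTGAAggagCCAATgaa
Birc5, chr11:117849087-117849236, plus strand: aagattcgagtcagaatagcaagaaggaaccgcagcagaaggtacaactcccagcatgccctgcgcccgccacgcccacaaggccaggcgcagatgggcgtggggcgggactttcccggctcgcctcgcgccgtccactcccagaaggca
Hjurp, chr1:88277580-88277729, minus strand: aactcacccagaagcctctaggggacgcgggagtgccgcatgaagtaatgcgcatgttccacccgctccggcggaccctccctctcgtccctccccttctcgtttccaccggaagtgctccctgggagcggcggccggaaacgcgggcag
Ckap2l, chr2:129297213-129297362, minus strand: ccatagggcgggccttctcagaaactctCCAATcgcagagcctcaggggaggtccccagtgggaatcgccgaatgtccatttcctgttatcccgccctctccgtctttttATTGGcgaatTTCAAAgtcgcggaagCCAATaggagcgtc
Ccnb2, chr9:70421555-70421704, minus strand: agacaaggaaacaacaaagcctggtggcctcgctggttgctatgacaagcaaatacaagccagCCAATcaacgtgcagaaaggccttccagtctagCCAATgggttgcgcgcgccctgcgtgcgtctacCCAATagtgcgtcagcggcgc
In these 150 bases Cdc20 held 1 TTTGAA and 2 CCAAT matches, Ckap2l held 1 TTTGAA and 3 CCAAT matches, Cks2 held 0 TTTGAA and 2 CCAAT matches and Ccnb2 held 0 and 3. Birc5 and Hjurp held neither, which says only that these letters are not in the stretch shown.

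Of 80071 barcodes, 65779 held 1000 UMIs or more with no more than 10% of them mitochondrial, and these cells were used. Kept UMIs per embryo ranged from 82872641 to 123737385 and the median per cell from 10795 to 17077.5. Over all cells Gatad2b itself ranged in WT over 131 to 139 counts per 1000000 (CPM), in Het over 89.8 to 95.7 and in KO over 50.9 to 57.3, so the embryos followed their labels. Some Gatad2b RNA was thus still counted in KO. The paper could not detect the protein by western blot in the cerebellum of homozygous embryos. By immunostaining it reports the protein as absent from cortical nuclei of homozygous embryos at E16.5. The median mitochondrial share of a cell was 3.60% to 3.97% in WT and Het 4 and 4.31% to 4.66% in Het 1 to Het 3 and KO, so it moved with the library prefix. The median UMIs per cell averaged 12509, 14338 and 15315 in WT, Het and KO. The part of either in the results was not tested beyond the limits on cells given below. Any 2 libraries shared 4 to 19 cell barcodes. The deposited library names carry 2 prefixes. All WT embryos and Het 4 have one, and Het 1 to Het 3 and all KO embryos have the other, so that prefix and genotype cannot be told apart in KO against WT. KO was therefore also compared with Het 1 to Het 3, within the same prefix. A fit with the prefix as a covariate takes its effect only from Het 4 against Het 1 to Het 3, so its values rest on Het 4.

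The 3 progenitor gates used no cell cycle gene. Eomes-positive cells held at least 2 UMIs of Eomes and fewer than 2 of Dlx1 and Dlx2 together. Hes5-positive cells held at least 2 UMIs of Hes5 and fewer than 2 of Eomes and of the Dlx pair. Dlx-positive progenitors held at least 2 UMIs of the Dlx pair, at least 1 UMI from a further set of progenitor genes and fewer than 2 of Eomes. Per embryo they counted 339 to 541, 67 to 152 and 456 to 800 cells.

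Markers outside the gates fitted the names in part. In Hes5-positive cells a list of 6 radial glia genes summed to 152, 146 and 135 UMIs per 10000 in WT, Het and KO, against 3.69 to 4.55 in cells outside all gates. In Eomes-positive cells 5 intermediate progenitor genes summed to 11.3, 12.7 and 14.1, against 1.42 to 2.16 outside, but a list of 5 neuronal genes was also at 24.2, 21.1 and 21.5. Dlx-positive progenitors held 12.5, 12.3 and 12.7 UMIs per 10000 of 5 ganglionic eminence genes, and their neuronal genes were at 25.6, 19.5 and 16.3. The Eomes and Dlx gates therefore carried neuronal transcripts beside those of progenitors. Among 281 cells with microglia genes, which should lack the gate genes, 1.07% had 2 or more UMIs of Eomes, 0.356% of Hes5 and 5.34% of the Dlx pair, at a median of 6035 UMIs. Over all cells these shares were 6.63%, 2.62% and 23.7%, at a median of 13874 UMIs.

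Over all cells the G2/M share was highest in KO. It was 0.178%, 0.192% and 0.167% of UMIs in WT, with a mean of 0.179% ± 0.0125 (SD, n = 3). In Het it was 0.201%, 0.192%, 0.193% and 0.221%, with a mean of 0.202% ± 0.0136 (n = 4). In KO it was 0.232%, 0.234% and 0.228%, with a mean of 0.232% ± 0.00293 (n = 3). Every KO embryo lay above every other embryo, while Het 2 lay just below the highest WT embryo.

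**Figure D1:**
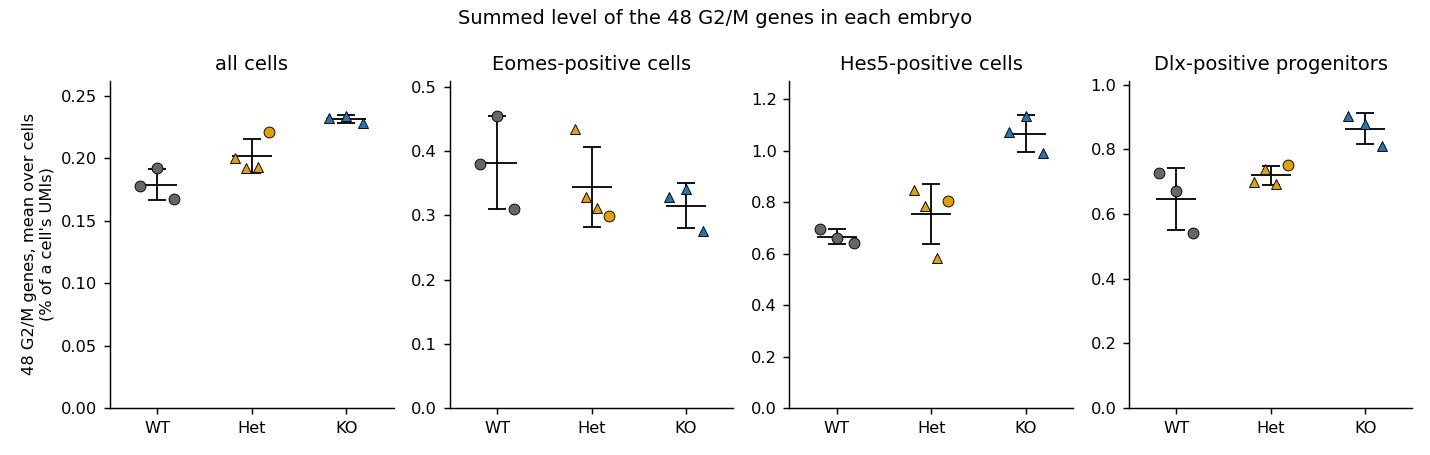
Summed share of the 48 G2/M genes in each embryo (vertical axis, percent of a cell's UMIs, mean over cells) over all cells and in the 3 gates. Points are embryos, circles and triangles mark the 2 library prefixes, and bars show the mean and SD. KO lay above WT in all cells, Hes5-positive cells and Dlx-positive progenitors, and the groups overlapped in Eomes-positive cells.

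The gates differed. In Hes5-positive cells the G2/M share was 0.698%, 0.660% and 0.640% in WT, 0.847%, 0.785%, 0.583% and 0.806% in Het and 1.07%, 1.14% and 0.993% in KO. All KO embryos lay above all others there, and Het 3 lay below WT. In Dlx-positive progenitors it was 0.726%, 0.671% and 0.540% in WT, 0.698%, 0.738%, 0.692% and 0.752% in Het and 0.902%, 0.878% and 0.810% in KO, again with KO apart from all others. In Eomes-positive cells it was 0.380%, 0.455% and 0.310% in WT, 0.435%, 0.329%, 0.312% and 0.298% in Het and 0.329%, 0.341% and 0.276% in KO. The Eomes means ran the other way, at 0.382%, 0.344% and 0.315%, but the 3 groups overlapped, and the place of Het changed with the cells and embryos used, as given with the genes of that gate.

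The spread of the share over cells was read beside its mean. In 35004 cells with at least 2 UMIs of the neuronal gene Neurod6 and in no gate the median G2/M share was 0.0767% and the 99th percentile 0.271%, so a cell was called G2/M-high at 0.5% of UMIs or more, which 0.640% of those cells reached. Over all cells 4.76% ± 0.614 of WT, 5.87% ± 0.577 of Het and 7.36% ± 0.166 of KO cells were G2/M-high, and KO (7.17% to 7.49%) lay above Het (5.36% to 6.68%) and WT (4.27% to 5.45%). The mean G2/M share inside those cells was 1.94% ± 0.0414, 1.96% ± 0.0578 and 1.98% ± 0.0259 of UMIs, with overlapping groups. In all other cells it was 0.0908%, 0.0919% and 0.0923%. The cut was set on the same share whose mean is given on either side of it, so these values are descriptions and do not separate more cells from more RNA per cell.

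**Figure D2:**
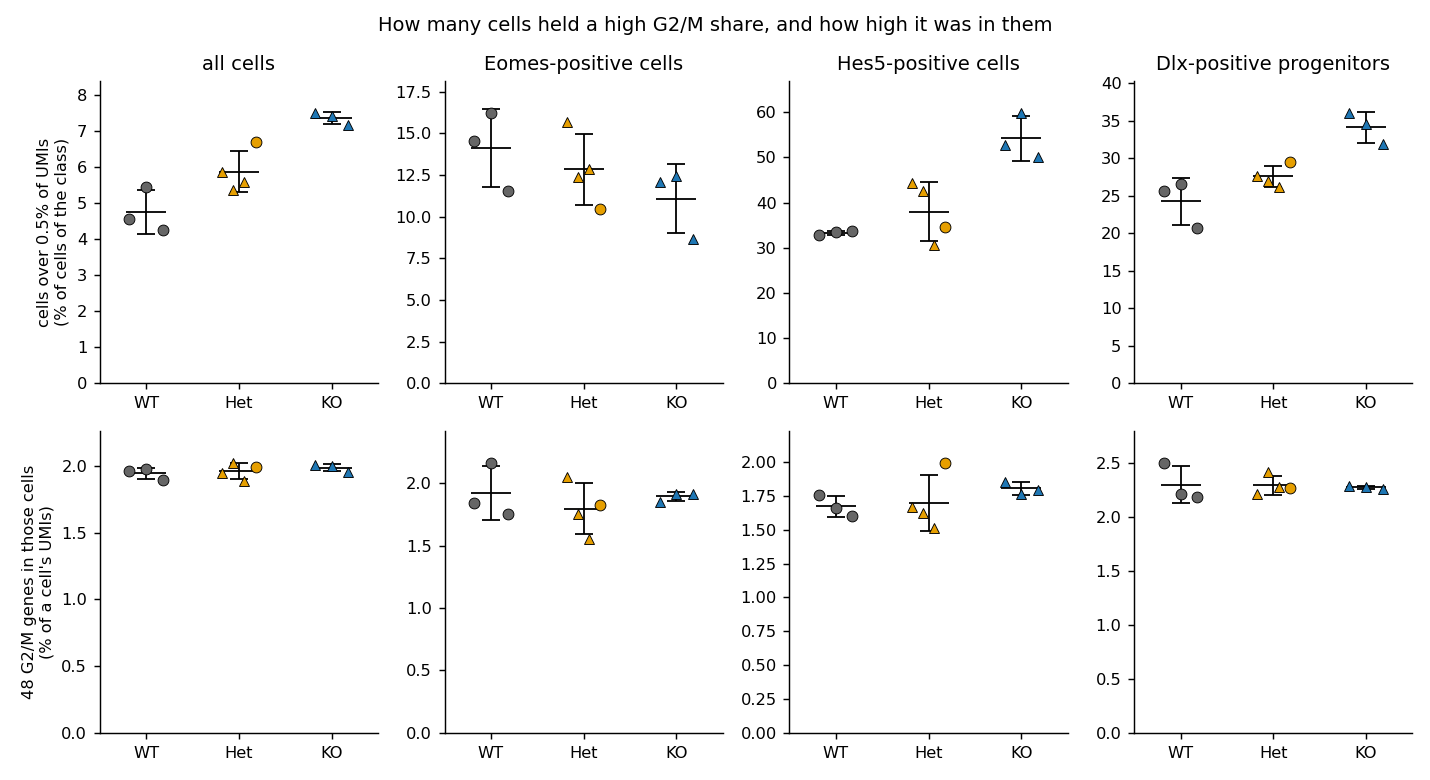
Top row, percent of the cells of a class with a G2/M share of at least 0.5% of UMIs. Bottom row, mean G2/M share in those cells, in percent of UMIs. Points are embryos with the mean and SD, and circles and triangles mark the library prefixes. In Dlx-positive progenitors the top row goes from 24.2% in WT to 34.1% in KO while the bottom row stays near 2.3%.

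Within the Dlx gate KO again stood apart in the share of G2/M-high cells. They made up 24.2% ± 3.15 of Dlx-positive progenitors in WT (20.6% to 26.5%), 27.6% ± 1.41 in Het (26.2% to 29.5%) and 34.1% ± 2.08 in KO (31.8% to 35.9%), and the level inside them was 2.30%, 2.29% and 2.27%. In the other cells of that gate the level was 0.115%, 0.122% and 0.135% of UMIs. KO (0.129% to 0.143%) lay above WT (0.111% to 0.117%) there, but Het 3 (0.131%) lay above KO 1. In Hes5-positive cells the share of G2/M-high cells was 33.3% ± 0.481, 38.0% ± 6.51 and 54.2% ± 5.0, with KO (50% to 59.7%) above all other embryos. Here the level inside G2/M-high cells was also somewhat higher in KO, at 1.81% ± 0.0460 against 1.67% ± 0.0795 in WT and 1.70% ± 0.206 in Het, and all 3 KO embryos lay above all WT embryos but not above Het 4 (1.99%). The other Hes5-positive cells were at 0.164% (0.154% to 0.182%) in WT, 0.177% in Het and 0.198% (0.192% to 0.201%) in KO, so KO and WT did not overlap there either. In Eomes-positive cells the share of G2/M-high cells was 14.1% ± 2.35, 12.8% ± 2.15 and 11.1% ± 2.07, with overlapping groups. Cells between 0.25% and 1% of UMIs, near the cut, made up 3.10% to 3.57% of all cells by group mean but 19.6% to 27.0% of Hes5-positive cells, so the division is least sharp there. With cells thinned to 5000 UMIs and gated at 1 UMI the shares of G2/M-high Hes5-positive cells were 25.4%, 28.3% and 39.1% and those of Dlx-positive progenitors 28.5%, 30.0% and 37.5%. In the thinned Hes5-positive cells KO 3 (35.2%) lay below Het 2 (36.1%), so KO was apart from WT but not from Het.

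The gates themselves held different shares of the cells. Eomes-positive cells were 4.61% ± 0.264 of WT, 6.66% ± 1.01 of Het and 7.99% ± 0.877 of KO cells, and WT did not overlap with either group. Dlx-positive progenitors were 7.40% ± 0.931, 9.07% ± 0.954 and 9.74% ± 0.714, and Hes5-positive cells 1.71% ± 0.376, 1.56% ± 0.116 and 1.72% ± 0.369. By its own clusters, which are not these gates, the paper reports fewer ganglionic eminence cells in both mutant groups. It reports more radial glia and more progenitor-like cells of the subventricular zone in both. In a two-sided exact permutation test KO against WT gave p = 0.1 for the Eomes and Dlx gates, the smallest p that 3 against 3 embryos allow, and p = 1 for the Hes5 gate. Het against WT gave exact p = 0.0571, 0.0857 and 0.629 for the Eomes, Dlx and Hes5 gates, where 0.0286 is the smallest possible. After adjustment over the 9 tests none was below 0.225. Without cells with 2 or more UMIs of Neurod6 the Eomes-positive share differed by 0.637 percentage points between KO and WT in place of 3.37.

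The difference of each embryo's all-cell G2/M share from the WT mean was split into a part from these cell shares and a part from the mean G2/M level within each gate and in the cells of no gate. KO embryos lay 0.0491 to 0.0548 percentage points above WT. From 0.0191 to 0.0274 points came from the shares of cells in and outside the gates, and 0.0217 to 0.0347 points from levels within the gates and in the cells of no gate, of which the latter gave 0.00902 by group mean. The Dlx gate gave the largest piece of both parts by group mean, 0.0177 points by its share and 0.0187 by its level. The level of a gate is a mean over all its cells, so it also moves with the mix of cells inside the gate. The Eomes gate added 0.0118 points through its larger share and gave -0.00418 through its lower level. The split was not repeated with the Eomes gate free of Neurod6 cells. Het embryos lay 0.0129 to 0.0420 points above WT, with 0.00981 to 0.0193 from cell shares and -0.000263 to 0.0227 from levels. Het 4, which shares the WT prefix, was the highest Het embryo in the total and in both parts.

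**Figure D3:**
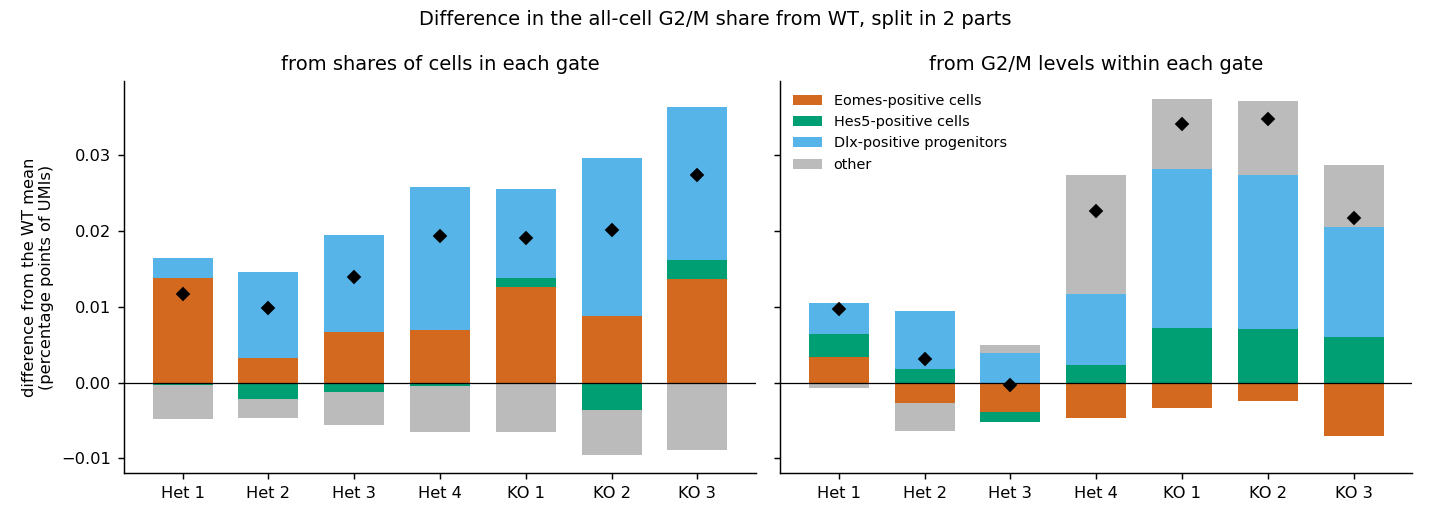
Difference of each Het and KO embryo from the WT mean of the all-cell G2/M share (vertical axis, percentage points of UMIs), split into the part from the shares of cells in each gate (left) and from the G2/M level within each gate (right). Colors are the gates, "other" is cells in no gate, and diamonds are the sums. Both parts were positive in all KO embryos, with the Dlx gate in blue as the largest color by group mean.

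Of the 3872 G2/M-high cells, 1287 lay in no gate. By group mean Dlx-positive progenitors held 37.5%, 42.6% and 45.0% of the G2/M-high cells of WT, Het and KO, Eomes-positive cells 13.7%, 14.9% and 11.9% and Hes5-positive cells 11.9%, 10.1% and 12.5%. Of the 1287, 379 had none of the markers looked for. Dlx-positive progenitors were the largest gate among G2/M-high cells in each genotype by group mean.

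Gene by gene, UMIs were summed per embryo and tested with edgeR's quasi-likelihood test over all genes. A gene was called when its Benjamini-Hochberg adjusted p was below 0.05 and its log2 fold change beyond 0.25 in size. In sums over all cells, more cells of a kind and more RNA per cell cannot be told apart. Of the 48 genes, 36 were called in KO against WT, 35 higher and 1 lower, where 24.5% of the 17647 genes tested were called, 12.0% higher and 12.5% lower. The median log2 fold change was 0.42 over the 48 genes and -0.01 over all genes tested. The former was 0.64 with the prefix as a covariate and 0.69 with cells limited to 5% mitochondrial UMIs. In 39 of the 48 genes all KO embryos lay above all WT embryos, as they did in 26.7% of all genes tested.

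**Figure D4:**
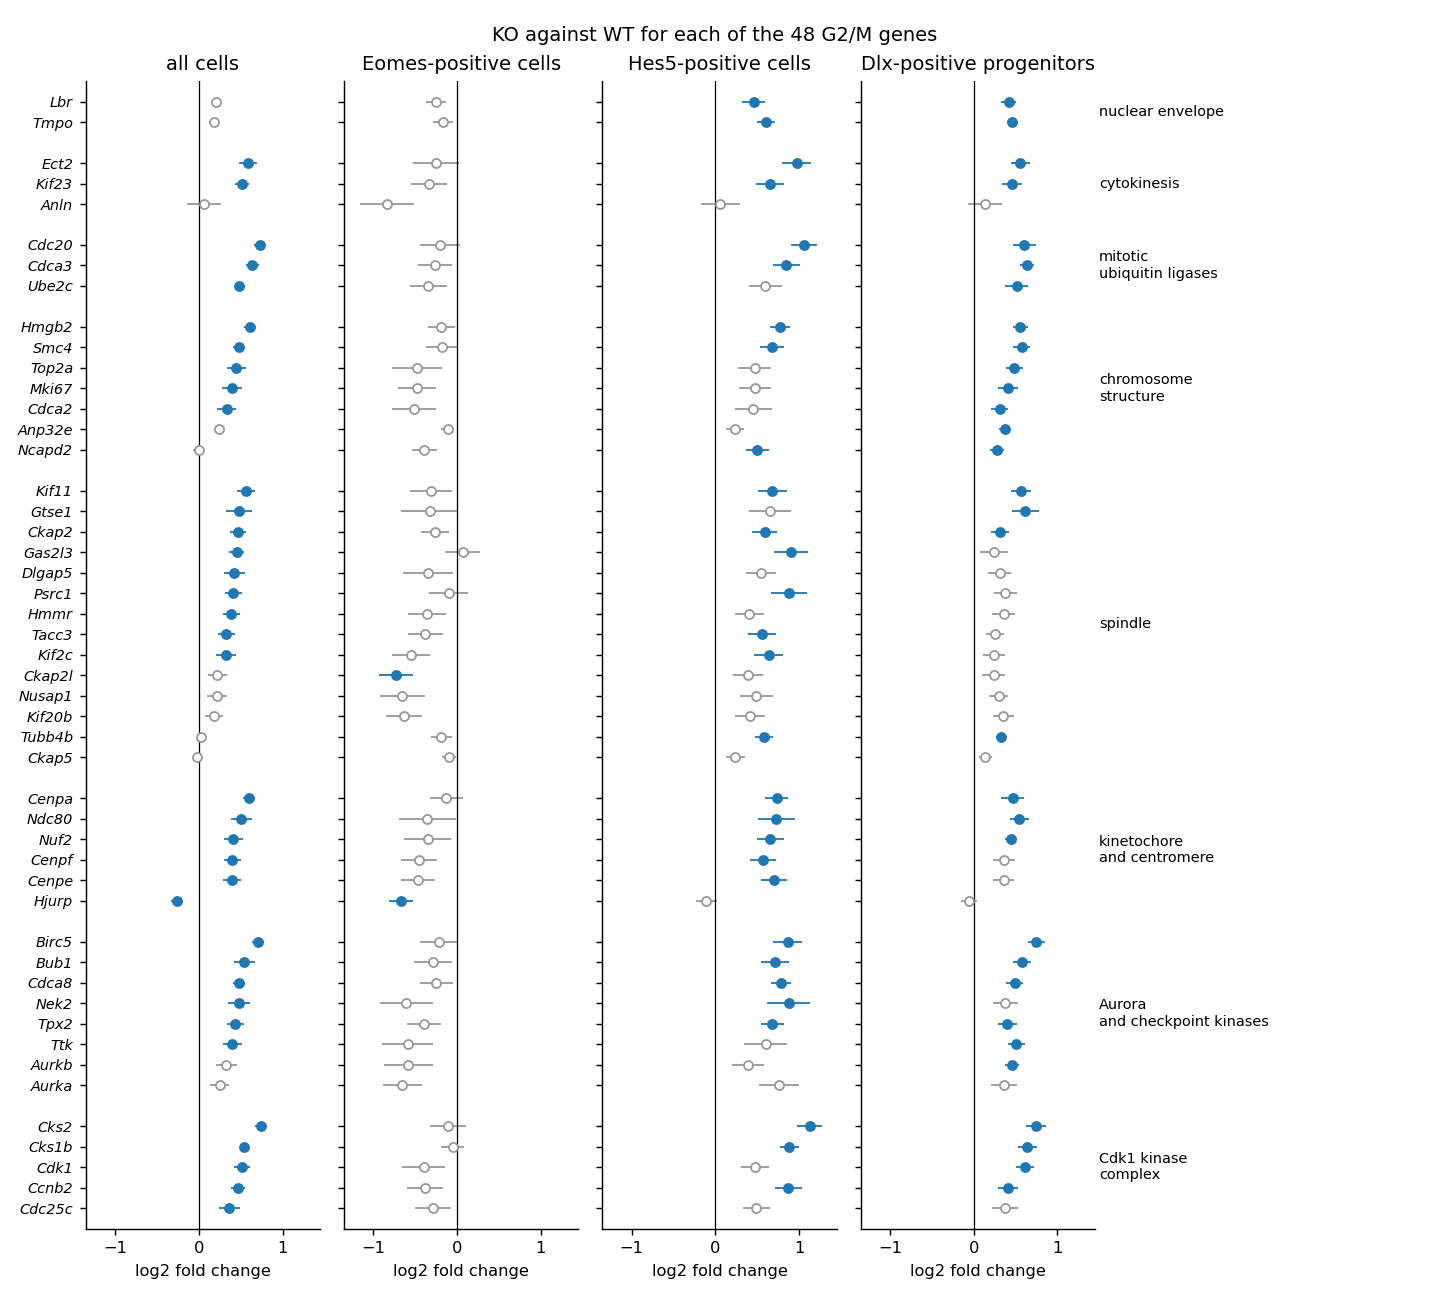
Log2 fold change of KO against WT for each of the 48 genes (horizontal axis, with its standard error), grouped by role, over all cells and in the 3 gates. Filled blue points passed the test and open gray points did not. The points lie to the right of 0 in 45 of 48 genes over all cells, in 47 in Hes5-positive cells and in 47 in Dlx-positive progenitors, and to the left in 47 of 48 genes in Eomes-positive cells.

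All 5 genes grouped with the Cdk1 kinase, its subunits and the regulator Cdc25c, rose over all cells in KO. Cks2, a small subunit that docks the kinase to its substrates, had the largest increase of the list. It was at 37.0, 42.9 and 36.3 CPM in WT, 57.2, 48.5, 51.2 and 51.7 in Het and 66.7, 67.9 and 60.4 in KO, with the 3 groups apart. The log2 fold changes were 0.75 in KO (SE 0.08, adjusted p = 5.16e-05) and 0.43 in Het (SE 0.07, adjusted p = 0.0139). Cdk1, the kinase that drives entry into mitosis, was at 20.4, 25.2 and 18.7 CPM in WT, 28.2, 25.3, 24.96 and 25.9 in Het and 32.2, 31.7 and 28.0 in KO. Its KO embryos lay above WT, and its log2 fold change was 0.51 in KO (adjusted p = 0.00214) and 0.28 in Het (adjusted p = 0.0838). Its partner cyclin B2 (Ccnb2) was at 12.0, 12.7 and 12.1 CPM in WT, 17.2, 13.7, 13.7 and 16.4 in Het and 16.48, 17.6 and 17.1 in KO, with WT below both other groups. It rose by 0.47 in KO (adjusted p = 0.00172) and by 0.31 in Het (adjusted p = 0.0497), on the log2 scale, and the Het call was lost when any 1 embryo but Het 4 was left out (0.25 to 0.36).

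Of the 8 Aurora and checkpoint genes, 6 rose in KO. Birc5 (survivin), which places the Aurora B kinase on chromosomes, was at 23.9, 27.8 and 23.9 CPM in WT, 35.2, 32.3, 33.1 and 33.6 in Het and 40.8, 44.7 and 37.9 in KO. The 3 groups stood apart, with log2 fold changes of 0.71 in KO (adjusted p = 4.79e-05) and 0.41 in Het (adjusted p = 0.0119). Tpx2, the activator of Aurora A on the spindle, was at 36.0, 40.4 and 34.4 CPM in WT, 46.0, 38.3, 38.1 and 50.6 in Het and 51.1, 48.4 and 50.6 in KO, a log2 fold change of 0.44 in KO (adjusted p = 0.00618), with Het across the range of both. The Aurora kinase genes themselves did not pass the test over all cells. Aurkb was at 8.40, 11.1 and 7.62 CPM in WT, 11.1, 9.93, 9.67 and 11.1 in Het and 12.6, 10.8 and 10.5 in KO (log2 fold change 0.33, adjusted p = 0.0607), with WT 2 inside the KO range and a call without WT 2 (0.49), and Aurka had a log2 fold change of 0.25 (adjusted p = 0.113).

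Among the 6 kinetochore and centromere genes, 5 rose and Hjurp fell. Cenpf, a large kinetochore protein, was at 76.1, 84.8 and 71.96 CPM in WT, 93.1, 81.1, 77.3 and 104 in Het and 108, 94.8 and 105 in KO, with a log2 fold change of 0.40 (adjusted p = 0.0103) and KO above WT. Cenpa, the centromeric histone, had one of 0.60 (adjusted p = 9.39e-05). Hjurp, the chaperone that loads Cenpa onto centromeres, was at 68.4, 65.7 and 67.5 CPM in WT, 60.0, 55.3, 55.03 and 68.1 in Het and 57.3, 54.7 and 56.5 in KO. It fell by 0.26 on the log2 scale in KO (adjusted p = 0.0137) and was under the fold threshold without KO 2 (-0.24). Het 1 to Het 3 lay near KO, whose prefix they share, and Het 4 near WT, whose prefix it shares. With the prefix as a covariate, which rests on Het 4, the log2 fold change was 0.0045. Prefix and genotype cannot be told apart here.

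Of the 14 spindle genes, 9 rose. Kif11, the motor that pushes spindle poles apart, was at 22.7, 25.05 and 19.0 CPM in WT, 29.3, 24.1, 24.4 and 30.6 in Het and 33.7, 31.7 and 33.0 in KO, above all other embryos (log2 fold change 0.56, adjusted p = 0.0024). The tubulin Tubb4b, which is also abundant outside mitosis, was at 158, 169 and 168 CPM in WT, 163, 180, 169 and 161 in Het and 171, 170 and 164 in KO, with overlapping groups (log2 fold change 0.03, adjusted p = 0.65). Ckap5, a microtubule polymerase, ranged over 165 to 173 CPM in WT embryos, 157 to 179 in Het embryos and 164 to 170.5 in KO embryos (log2 fold change -0.02, adjusted p = 0.779). Both are among 8 genes of the list also known in non-dividing cells. How much of their all-cell level comes from such cells was not tested.

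Of the 7 chromosome genes, 5 rose. Hmgb2, a chromatin protein and the most abundant of the 48, was at 328, 375 and 300 CPM in WT, 456, 402, 409 and 454 in Het and 512, 515 and 506 in KO. The groups stood apart, with log2 fold changes of 0.61 in KO (adjusted p = 0.000205) and 0.36 in Het (adjusted p = 0.0278). Top2a, which untangles sister chromatids, was at 87.6, 107 and 78.1 CPM in WT, 111, 97.6, 96.7 and 122 in Het and 131, 117 and 124 in KO (log2 fold change 0.45, adjusted p = 0.0101). Mki67, which coats mitotic chromosomes and is the usual marker of proliferation, was at 57.6, 65.3 and 51.2 CPM in WT, 69.3, 56.8, 58.5 and 76.9 in Het and 78.5, 69.2 and 81.4 in KO (log2 fold change 0.40, adjusted p = 0.0215). For both, KO lay above WT and Het spanned the gap. The call of Mki67 was lost without WT 1, WT 3, KO 1 or KO 3, at log2 fold changes of 0.31 to 0.39. That of Hmgb2 in Het was lost without WT 1, WT 3, Het 1 or Het 3 (0.29 to 0.39). The condensin subunit Ncapd2 was at 30.6 to 33.7 CPM in WT and 31.3 to 34.7 in KO (log2 fold change -0.003, adjusted p = 0.975).

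All 3 genes of mitotic ubiquitin ligases rose. Cdc20, the activator of the anaphase-promoting complex, was at 16.53, 18.1 and 16.6 CPM in WT, 22.3, 20.3, 20.2 and 23.7 in Het and 27.8, 29.7 and 27.4 in KO. The groups stood apart, with log2 fold changes of 0.73 in KO (adjusted p = 2.63e-05) and 0.34 in Het (adjusted p = 0.0197). Ube2c, the ubiquitin-conjugating enzyme of that complex, was at 57.3, 64.2 and 57.4 CPM in WT, 76.5, 77.2, 67.7 and 76.9 in Het and 85.3, 88.6 and 76.5 in KO, with log2 fold changes of 0.49 in KO (adjusted p = 0.000445) and 0.32 in Het (adjusted p = 0.0298). WT lay below all other embryos, and KO 3 fell among Het. Its Het call was lost without WT 1, WT 3, Het 1 or Het 2 (0.29 to 0.31). Of the cytokinesis genes, Ect2 (log2 fold change 0.59) and Kif23 (0.52) rose and Anln (0.06, adjusted p = 0.836) did not pass, and Lbr (0.21) and Tmpo (0.19) of the nuclear envelope had small differences under the fold threshold.

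**Figure D5:**
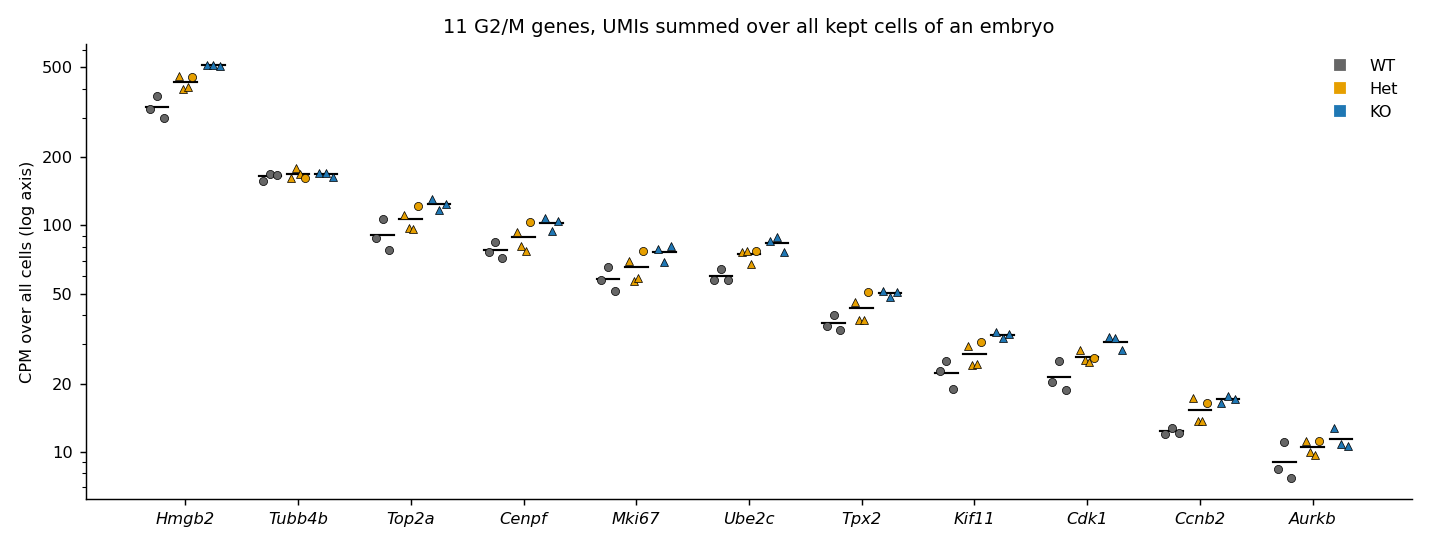
CPM over all cells (vertical log axis) of 11 G2/M genes in each embryo, ordered by level. Gray, orange and blue are WT, Het and KO, circles and triangles mark the 2 library prefixes, and bars are group means. KO lies above WT in 9 of the 11 genes, and the groups overlap in Tubb4b and Aurkb.

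In Het against WT, 11 of the 48 genes rose over all cells and none fell, where 2.98% of all genes were called, 1.58% higher and 1.40% lower. They were Ccnb2, Cks1b, Cks2, Birc5, Cdca8, Cenpa, Smc4, Hmgb2, Ube2c, Cdc20 and Cdca3. The median log2 fold change was 0.20 over the 48 genes and 0.00 over all genes tested. The count was 1 without WT 1 or without WT 3, 3 without Het 1, 6 without Het 2, 7 without Het 3 or KO 3, and 2 with the prefix as a covariate, where the median over the 48 genes was 0.38. At 5% mitochondrial UMIs that median was 0.37. The log2 ratio of the G2/M share, Het to WT, was 0.172 and ranged from 0.124 to 0.224 with 1 WT or Het embryo left out. In KO against Het 1 to Het 3, within the same prefix, 19 of the 48 genes rose and none fell, where 6.14% of all genes were called, 2.92% higher and 3.22% lower. They included Cdc20 (log2 fold change 0.43, adjusted p = 0.00146), Kif11 (0.34, adjusted p = 0.0179), Mki67 (0.31, adjusted p = 0.0445) and Top2a (0.29, adjusted p = 0.0205). In 33 of the 48 genes the KO embryos lay above all 3 Het embryos of that prefix, against 13.9% of all genes. The 19 calls became 32 without Het 1, 1 without Het 2, 2 without Het 3, 8 without KO 1, 12 without KO 2 and 6 without KO 3. The log2 ratio of the G2/M share, KO to these Het embryos, was 0.247 and stayed at 0.235 to 0.267 with any of them left out. With cells limited to 5% mitochondrial UMIs there was 1 call. Calls over all genes then went from 1054 to 810 and the median of the 48 from 0.27 to 0.26. For the fits with 1 embryo left out, here and in Het against WT, calls over all genes are not given.

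In Hes5-positive cells 29 of the 48 genes rose in KO against WT and none fell, where 12.3% of the 11338 genes tested were called, 5.76% higher and 6.50% lower. The median log2 fold change was 0.62, against -0.01 over all genes. All KO embryos lay above all WT embryos in 43 of the 48 genes and above Het of the same prefix in 29, where 17.1% and 8.80% of all genes did. Cks2 was at 215, 237 and 206 CPM in WT, 402, 259, 274 and 306 in Het and 469, 563 and 411 in KO (log2 fold change 1.13, SE 0.15, adjusted p = 0.000525). Cdc20 was at 98.9, 105 and 121 CPM in WT, 183, 118, 110 and 147 in Het and 213, 249 and 217 in KO (log2 fold change 1.06, adjusted p = 0.00108). For both, KO lay above all other embryos. Ect2, which positions the cleavage furrow, was at 42.5, 40.4 and 36.5 CPM in WT, 68.5, 52.7, 37.2 and 60.3 in Het and 84.4, 84.1 and 66.5 in KO (log2 fold change 0.97, adjusted p = 0.0033), with Het 1 just inside the KO range. The lowest were Hjurp (log2 fold change -0.11), the cytokinesis scaffold Anln (0.06) and the histone chaperone Anp32e (0.23), none past the test. Mki67 (0.47, adjusted p = 0.114) and Top2a (0.47, adjusted p = 0.134) did not pass in these 67 to 152 cells per embryo, while Tubb4b did (0.58, adjusted p = 0.00408).

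In Het against WT edgeR called 0 of the 48 genes in Hes5-positive cells, where 0% of all genes were called, with 10 genes at an unadjusted p under 0.05 and 0 called by DESeq2. Against Het of the same prefix, the kinesin Cenpe (log2 fold change 0.77, adjusted p = 0.0145), the midzone motor Kif23 (0.70, adjusted p = 0.0454) and Cdc20 (0.70, adjusted p = 0.0464) rose in KO, where 1.90% of all genes were called, 0.666% higher and 1.23% lower. All 48 log2 fold changes were above 0 in that comparison, with a median of 0.49. The 29 genes of KO against WT became 19 without WT 2, 16 without WT 3, KO 1 or KO 2, and 5 with the prefix as a covariate, where the median of the 48 was 0.80 and calls over all 11338 genes went from 1390 to 148. Without those single embryos 564 to 701 genes were called in all. The 3 genes within the prefix became 24 without Het 1, 1 without Het 2 or Het 3 and 0 without KO 1, KO 2 or KO 3. The neuronal list was lower in KO in this gate, at 5.63 (5.49 to 5.91) UMIs per 10000 against 9.40 (8.28 to 10.9) in WT, and its part in the result was not tested.

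In Dlx-positive progenitors 31 of the 48 genes rose in KO against WT and none fell, where 22.7% of the 12827 genes tested were called, 10.8% higher and 11.9% lower. The median log2 fold change was 0.41, against -0.00 over all genes. In 25 of the 48 genes all KO embryos lay above all WT embryos, against 21.4% of all genes. Birc5 was at 178, 145 and 134 CPM in WT, 210, 207, 202 and 180 in Het and 265, 272 and 230 in KO (log2 fold change 0.75, SE 0.10, adjusted p = 0.000243). Cks2 was at 238, 186 and 163 CPM in WT, 257, 265, 261 and 237 in Het and 361, 341 and 282 in KO (log2 fold change 0.74, adjusted p = 0.000716). Cks1b, the other small Cdk1 subunit, was at 165, 121 and 119 CPM in WT, 166, 180, 183 and 172 in Het and 210, 234 and 188 in KO (log2 fold change 0.64, adjusted p = 0.00128). In all of these KO lay above the other embryos. All 7 chromosome genes rose, among them Mki67 (0.41, adjusted p = 0.0205) and Top2a (0.49, adjusted p = 0.00356), as did Aurkb (0.46, adjusted p = 0.00171). Of the 14 spindle genes 4 rose, Kif11, Ckap2, Gtse1 and Tubb4b. The lowest were Hjurp (log2 fold change -0.05), Anln (0.14) and Ckap5 (0.14), none past the test.

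In Het against WT the lamina protein Tmpo (log2 fold change 0.32, adjusted p = 0.0315) and Cdca3 (0.35, adjusted p = 0.0463), which helps to trigger mitotic entry, rose in Dlx-positive progenitors, where 1.29% of all genes were called, 0.702% higher and 0.593% lower. The count was 12 without WT 1, 0 without WT 2, WT 3, Het 1, Het 2 or Het 3, 3 without Het 4 and 1 without any 1 KO embryo. For these fits calls over all genes are not given. Within the same prefix 14 genes rose in KO, where 2.50% of all genes were called, 0.987% higher and 1.52% lower, and in 40 of the 48 genes the KO embryos lay above all 3 Het embryos, against 10.1% of all genes. The 14 calls became 4 without Het 1, 1 without Het 2, 3 without Het 3, 2 without KO 1 and 5 without KO 2. Calls over all genes then went from 312 to 195, 88, 263, 175 and 144. The medians of the 48 were 0.28, 0.29, 0.27, 0.23 and 0.29, beside 0.28 with all embryos. The 14 calls became 0 with cells limited to 5% mitochondrial UMIs. There calls over all genes went from 312 to 46 and the median of the 48 from 0.28 to 0.24. With the prefix as a covariate 2 genes were called in KO against WT in place of 31, while calls over all 12827 genes went from 2911 to 253, and the median of the 48 was 0.53. In this gate, too, the neuronal list moved with the genotype, from 25.6 (24.2 to 26.9) UMIs per 10000 in WT to 16.3 (15.9 to 16.51) in KO. A list of 6 radial glia genes moved the other way, from 12.4 (10.47 to 14.1) to 21.1 (16.4 to 24.7), and the part of either in the result was not tested.

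In Eomes-positive cells 2 of the 48 genes fell in KO against WT and none rose, where 16.2% of the 12824 genes tested were called, 7.96% higher and 8.26% lower, so the count was below the background. All KO embryos lay below all WT embryos in 8 of the 48 genes, against 18.4% of all genes. The log2 fold change was below 0 in 47 of the 48, with a median of -0.35 against -0.01 over all genes. Hjurp was at 105, 111 and 78.7 CPM in WT, 90.0, 67.1, 68.7 and 69.7 in Het and 71.1, 53.6 and 60.1 in KO (log2 fold change -0.67, SE 0.14, adjusted p = 0.00811). Ckap2l, a spindle protein needed in neural progenitors, was at 40.7, 59.5 and 36.9 CPM in WT, 44.1, 32.0, 25.6 and 26.8 in Het and 31.4, 26.1 and 25.6 in KO (log2 fold change -0.73, SE 0.21, adjusted p = 0.0298). For both, KO lay below WT, and the call of Ckap2l was lost without WT 2 (-0.48), KO 2 or KO 3. Anln had the lowest value but did not pass, at 15.8, 21.0 and 9.28 CPM in WT and 11.1, 6.45 and 8.18 in KO (log2 fold change -0.84, adjusted p = 0.0884), although it did without WT 3 or Het 1. The values at the other end were Gas2l3 (0.07), Cks1b (-0.05) and Ckap5 (-0.10). Hmgb2, Mki67 and Top2a had -0.19, -0.48 and -0.48 and did not pass.

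The count in Eomes-positive cells was 1 without WT 2, KO 2 or KO 3, 6 without WT 3 and 7 without Het 1, and 0 with the prefix as a covariate. Calls over all genes were 1325, 1355 and 1482 without WT 2, KO 2 and KO 3, in place of 2080. They were 1696 without WT 3, 2042 without Het 1 and 132 with the covariate. The median of the 48 genes was -0.11 without WT 2, -0.21 without KO 3, -0.13 at 5% mitochondrial UMIs and -0.79 with the covariate. Without the cells that also held 2 or more UMIs of Neurod6, 1 of the 48 genes was called, beside 400 of all genes. The median log2 fold change of the 48 genes was then -0.06 in KO against WT, 0.27 in Het against WT and -0.36 in KO against Het within the prefix. The G2/M share of the gate then differed by -0.05 on the log2 scale between KO and WT. In Het against WT edgeR called 0 of the 48, where 0.0390% of all genes were called (0.0234% higher, 0.0156% lower), with 3 genes at an unadjusted p under 0.05 and 0 called by DESeq2. The median of the 48 was -0.16 there and 0.03 without WT 2. Within the same prefix edgeR called 0, where 2.14% of all genes were called (1.04% higher, 1.10% lower), with 13 genes at an unadjusted p under 0.05 and 0 called by DESeq2, and all 48 log2 fold changes lay below 0 with a median of -0.30. That median was -0.10 without Het 1 and -0.19 without KO 3.

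Whether KO against WT differed between gates was tested in itself, with both gates of each embryo in 1 fit and the embryo as a block. The change was higher in Hes5-positive than in Eomes-positive cells for 34 of the 48 genes, where 3.13% of all genes were called. The largest differences were those of the centrosomal kinase Nek2 (log2 difference 1.52, adjusted p = 0.0495), Aurka (1.44, adjusted p = 0.0127) and Cdc20 (1.29, adjusted p = 0.0093). It was higher in Dlx-positive progenitors than in Eomes-positive cells for 21 genes, where 4.64% of all genes were called, among them Aurkb (1.05, adjusted p = 0.0372) and Aurka (1.03, adjusted p = 0.041). The first count was 10 without WT 2, 20 without KO 2 and 17 without KO 3. The medians of the 48 differences were then 0.79, 0.95 and 0.96, and calls over all genes 110, 167 and 169 in place of 407. The second was 0 without KO 3, 2 without WT 2, 4 without KO 2, 9 without WT 3, 10 without Het 2 and 13 without KO 1. Its medians were then 0.72, 0.58, 0.85, 0.84, 0.81 and 0.82. Calls over all genes were 191, 258, 228, 394, 568 and 522 in place of 623. With the Eomes gate free of Neurod6 cells the counts were 3 and 6, and the medians of the differences 0.72 and 0.51 in place of 0.98 and 0.81. Between Hes5-positive cells and Dlx-positive progenitors edgeR called 0 of the 48, where 1.10% of all genes were called, with 8 genes at an unadjusted p under 0.05, and this contrast was not run in another tool.

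A further 49 genes of mitosis that are not in the list were tested in the same fits. Over all cells 30 rose and none fell in KO against WT, with a median log2 fold change of 0.36 and a background of 12.0% of all genes higher, and the kinesin Kif18b had the largest (0.82). In Hes5-positive cells 18 rose, where 5.76% of all genes were higher, and in Dlx-positive progenitors 30, where 10.8% were, with none lower. In Eomes-positive cells, where 8.26% of all genes were lower and 7.96% higher, 7 of the 49 fell, with the cohesin protector Sgo1 lowest (-0.81), and the kinetochore protein Zwint rose (0.42). Against Het of the same prefix, 12 rose over all cells, 2 in Hes5-positive cells and 8 in Dlx-positive progenitors. There 2.92%, 0.666% and 0.987% of all genes were higher, and the medians of the 49 were 0.21, 0.36 and 0.25. In Eomes-positive cells 0 fell, where 1.10% of all genes were lower, with a median of -0.37.

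Genes of DNA replication, which come earlier in the cycle, were read beside them. Of 44 such genes 38 rose in Dlx-positive progenitors in KO, against 10.8% of all genes, with a median log2 fold change of 0.52, led by the replication clamp Pcna (0.96). In Hes5-positive cells 4 of the 44 rose, beside 5.76% of all genes, with a median of 0.31, beside 29 of the 48 G2/M genes with a median of 0.62. In Eomes-positive cells 12 of the 44 fell, against 8.26% of all genes, with the origin licensing factor Cdc6 lowest (-0.98). Over all cells 16 rose and none fell, against 12.0% higher among all genes, and Gmnn, the inhibitor of licensing, had the largest value (0.85). These values are all of KO against WT. Against Het of the same prefix, 4 of the 44 rose in Dlx-positive progenitors, 3 over all cells and 0 in Hes5-positive cells. There 0.987%, 2.92% and 0.666% of all genes were higher, and the medians of the 44 were 0.25, 0.11 and 0.10. In Eomes-positive cells 0 fell, where 1.10% of all genes were lower, with a median of -0.24. Whether the 2 lists differ was not tested.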

How the data were processed

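Droplet libraries of 10 embryos were processed by the authors with Cell Ranger (release 6.0.2 in the submitters' processing notes, an earlier one in the methods) against mm10, and the deposited matrices hold UMI counts per gene and barcode without normalization. Settings for the calling of cells are not given in the sources used here. Members and lists were chosen with earlier results of these data known. The study's limits for cells were used (1000 UMIs or more, no more than 10% of them mitochondrial). The 65779 cells they leave in the deposited matrices are not the number the study states, which is higher in its methods and lower in its results, for reasons not given in the sources used here. Doublets were kept in the main analysis. In an alternative the cells with the highest Scrublet scores were removed, at 0.8% per 1000 cells.

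G2/M shares are means over cells in percent of UMIs and have no test, since the list was chosen with results known. Gate shares were compared by exact permutation. For genes, UMIs were summed per embryo and class and fitted over all 10 embryos with edgeR 4.0.16 (limma 3.58.1, R 4.3.3) by filterByExpr, TMM and the quasi-likelihood F-test. KO against Het within the same prefix was fitted in the same way on Het 1 to Het 3 and the KO embryos alone. CPM are TMM-normalized. Each embryo is 1 sample. The counting error follows from the UMIs of an embryo in the class tested, 82872641 to 123737385 over all cells and fewer in each gate. Intervals for single shares are not given. The spread between embryos is. DESeq2 1.42.0 gave the alternative test. The fit was tested on simulated counts with known changes. Differences between gates were fitted with the embryo as a block, a test added after the data were seen, as were the gates without Neurod6 cells and the gate on the Dlx pair alone for counts of genes. The further genes of the Dlx gate are not reported here. Genes named with values per embryo are 11 well-known members and the 3 highest and 3 lowest log2 fold changes of KO against WT in each class. Other genes named were chosen after their values were seen, as examples of their role group, list or contrast.

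Labels number the embryos within each genotype. Deviations of embryos with the same number correlated at -0.199 to 0.134, so the numbers were not treated as pairs. Other alternatives were DESeq2 size factors, no filter on low counts, only the 2 groups, the library prefix as a covariate, at least 3000 UMIs, at most 5% mitochondrial UMIs, gates at 1 or 3 UMIs, thinned cells, other sums over the members and each embryo left out in turn. Shares, splits and figures used Python 3.11.15, numpy 2.4.6, scipy 1.17.1, pandas 2.3.3, scanpy 1.11.5 and matplotlib 3.10.9. Promoter sequences are from RefSeq.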

Additional observations from a re-analysis of the deposited data

Results flagged for a closer look

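Among 50 sets of Het values, of the named genes, the G2/M measures and the gate shares, 2 held an embryo far from the other 3, where chance gives about 1 in 20. Ube2c over all cells was at 67.7 CPM in Het 3 and at 76.5 to 77.2 CPM in the other Het embryos, a gap of 0.9222 of the whole range. Hjurp in Eomes-positive cells was at 90.0 CPM in Het 1 and at 67.1 to 69.7 CPM in the others, a gap of 0.8868 of the range.

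The change of KO against WT differed between gates by its own test, for 34 of the 48 genes between Hes5-positive and Eomes-positive cells, where 3.13% of all genes were called, and for 21 between Dlx-positive progenitors and Eomes-positive cells, where 4.64% were. The first count was 10 without WT 2 and the second 0 without KO 3. The medians of the 48 differences were then 0.79 and 0.72, against 0.98 and 0.81 with all embryos. Calls over all genes went from 407 to 110 and from 623 to 191. Without Neurod6 cells in the Eomes gate the counts were 3 and 6, and the medians 0.72 and 0.51.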

How the results depend on the processing

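The cause of the following changes was not tested. Fits with the library prefix as a covariate take its effect only from Het 4 against Het 1 to Het 3. Their medians rest on that embryo and do not separate prefix from genotype. Their Het against WT compares Het 4 alone with WT. Over all cells, KO against WT called 31 to 43 of the 48 genes under every setting with all embryos and 26 to 37 with 1 embryo left out. Of 138 counts under other settings 97 stayed within 1.5 times. With the library prefix as a covariate, counts of KO against WT were 0 (Eomes-positive), 5 (Hes5-positive) and 2 (Dlx-positive), with medians of the 48 log2 fold changes of -0.79, 0.80 and 0.53, farther from 0 than without it (-0.35, 0.62 and 0.41), and of Het against WT 2 (all cells) and 0 (Dlx-positive), with medians of 0.38 and 0.26 in place of 0.20 and 0.16. In fits of only the 2 groups, Het against WT gave 4 (all cells) and 1 (Dlx-positive), and KO against WT 5 (Eomes-positive). Calls over all genes were then 159 in place of 525 (Het against WT, all cells) and 2090 in place of 2080 (KO against WT, Eomes-positive). DESeq2 gave 5 in Eomes-positive cells (KO against WT), 13 in Hes5-positive cells (KO against Het) and 8 in Dlx-positive progenitors (Het against WT). It called 1757 of all genes in place of 2080 in the Eomes gate and 207 in place of 202 in the Hes5 gate. Without the filter on low counts, KO against WT gave 6 (Eomes-positive), Het against WT 3 (Hes5-positive) and 9 (Dlx-positive), and KO against Het 2 (Eomes-positive), 37 (Hes5-positive) and 33 (Dlx-positive). Calls over all genes then went from 2080 to 2098 (KO against WT, Eomes-positive) and from 0 to 268 (Het against WT, Hes5-positive). For KO against Het they went from 270 to 523 (Eomes-positive) and from 202 to 824 (Hes5-positive). At most 5% mitochondrial UMIs gave 1 for KO against WT in Eomes-positive cells, and for KO against Het 1 (all cells), 12 (Hes5-positive) and 0 (Dlx-positive). Calls over all genes then went from 2080 to 1725 in Eomes-positive cells (KO against WT) and from 202 to 188 in Hes5-positive cells (KO against Het). Gates at 1 UMI gave 18 for KO against WT in Hes5-positive cells, 0 (Hes5-positive) and 33 (Dlx-positive) for KO against Het, and 10 for Het against WT in Dlx-positive progenitors. In Hes5-positive cells calls over all genes then went from 1390 to 1352 (KO against WT) and from 202 to 95 (KO against Het). Gates at 3 UMIs gave 5 for KO against WT in Eomes-positive cells, 11 (Hes5-positive) and 3 (Dlx-positive) for KO against Het, and 1 for Het against WT in Dlx-positive progenitors. Calls over all genes then stayed at 2080 in Eomes-positive cells (KO against WT) and went from 202 to 274 in Hes5-positive cells (KO against Het). Without likely doublets, Dlx-positive progenitors gave 0 (Het against WT) and 28 (KO against Het), and a gate on the Dlx pair alone 8 and 33. Without Neurod6 cells, Eomes-positive cells gave 1 (KO against WT) and 1 (KO against Het), and the differences from the Hes5 and Dlx gates 3 and 6. Calls over all genes were then 400 in place of 2080 (KO against WT) and 71 in place of 270 (KO against Het). For the other counts of this paragraph calls over all genes are given above or not at all.

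With the replicate number as a replicate block, which does not pair these embryos, counts were 9 and 11 in Eomes-positive cells (KO against WT, KO against Het), 23 in Hes5-positive cells (KO against Het) and 7 in Dlx-positive progenitors (Het against WT), and the others stayed within 1.5 times.

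With 1 embryo left out, counts ranged from 1 to 10 (Het against WT) and 1 to 32 (KO against Het) over all cells, 1 to 7 and 0 to 1 (KO against WT, KO against Het) in Eomes-positive cells, 16 to 38 and 0 to 24 in Hes5-positive cells, and 0 to 12 (Het against WT) and 1 to 14 (KO against Het) in Dlx-positive progenitors. The differences between gates ranged from 10 to 38 (Hes5 against Eomes) and 0 to 31 (Dlx against Eomes). Calls over all genes in these fits are given above only in part. The Hes5-positive share of cells ranged from -0.145 to 0.219 percentage points (KO minus WT) and -0.304 to 0.0600 (Het minus WT).

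The log2 ratio of the G2/M share, KO to WT, moved over all cells to 0.56 at 5% mitochondrial UMIs and 0.30 without Hmgb2, and in Hes5-positive cells to 0.44 at 1 UMI, 0.60 with UMIs pooled and 0.57 with each gene weighed the same. KO to Het moved over all cells to 0.28 at 5% mitochondrial UMIs, 0.21 pooled and 0.33 without the 8 widely expressed genes, and in Hes5-positive cells to 0.21 at 1 UMI. For the share of G2/M-high cells it moved to 0.86 at 5% mitochondrial UMIs and 0.46 at a cut of 0.25% (KO to WT, all cells), 0.83 at 1% (Hes5-positive), and for KO to Het 0.29 at 0.25% and 0.45 at 1% (all cells), 0.74 at 1% (Hes5-positive) and 0.42 with a gate on the Dlx pair alone (Dlx-positive). The Hes5-positive share of cells, KO minus WT, changed sign to -0.0238 points without doublets, -0.0496 at 3000 UMIs, -0.0773 thinned and -0.167 with another denominator, and Het minus WT to 0.0678 at 5% mitochondrial UMIs.

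Signs of single genes changed, all near 0 in the main fit except Hjurp over all cells. It was called at -0.26 in the main fit and was at 0.0045 with the prefix covariate. Others with that covariate were Hjurp in Hes5-positive (0.17) and Dlx-positive cells (0.23), Ckap5 (0.13), Ncapd2 (0.17), Tubb4b (-0.0494 in KO, -0.029 in Het) and Gas2l3 in Eomes-positive cells (-0.64). At 5% mitochondrial UMIs they were Ckap5 (0.040), Ncapd2 (0.14), Cks1b in Eomes-positive cells (0.083) and Hjurp in Dlx-positive cells (0.020). At 1 UMI they were Cks1b (0.011) and Hjurp (0.025), and at 3 UMIs Gas2l3 (-0.026). With 1 embryo left out Ncapd2 ranged from -0.054 to 0.017, Tubb4b from -0.0056 to 0.042 in KO and -0.0069 to 0.051 in Het, Cks1b from -0.13 to 0.029 and Gas2l3 from -0.037 to 0.19 in Eomes-positive cells, and Anln from -0.17 to 0.28 in Hes5-positive and -0.047 to 0.36 in Dlx-positive cells. Hes5-positive cells, 67 to 152 per embryo, limit the depth of that gate.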
